A study of Homo sapiens with 6 samples.

Results

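RNA polymerase III (Pol III) transcribes, besides the tRNA genes, a small set of short non-coding RNA genes. The genes described here are 10 of them: RN7SK, RN7SL1, RN7SL2, RMRP, RPPH1, RNY1, RNY3, VTRNA1-1, VTRNA1-2 and VTRNA1-3. The hg19 annotation of GENCODE, release 44, holds 64486 genes in all. The 10 were examined for SMARCA4 peaks within 1 kb of the gene. SMARCA4 is the ATPase of the SWI/SNF chromatin remodelling complex, and its binding was mapped by ChIP-seq in K562, an established line of human chronic myelogenous leukaemia. Crosslinking used disuccinimidyl glutarate at 2 mM (30 min) and after it formaldehyde at 1% (10 min), and shearing gave fragments of 150 to 400 bp. The 3 SMARCA4 ChIP libraries were set against 3 input libraries, which hold the same kind of chromatin without the antibody step. The libraries were grouped by their titles, which name SMARCA4 or input, whereas a second label of the ChIP libraries reads G4 ChIP-seq. The series text calls the replicates technical and counts 1 input, and the paper calls them biological, so it is not settled whether they came from separate cultures. The deposited list holds 28265 peaks found in at least 2 of the 3 replicates, with a start and an end and no height, so a value of the list has no spread between replicates. The genes were put together with peaks of this list in view and their regions were selected on the measured peaks. Counts, distances and widths at these genes are therefore a description, with no test.

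Pol III uses several promoter designs. In 7SK, RNase MRP, RNase P and Y RNA genes the elements lie upstream of the start, with a TATA box and a proximal element bound by the SNAPc complex, helped by the activators OCT1 (POU2F1) at an octamer and ZNF143 at its own site. The 7SL genes combine upstream elements with sequences inside the gene, and vault RNA genes carry an A box and a B box inside the gene, as tRNA genes do, which are recognised by TFIIIC. The RNA products act in RNA-protein particles: 7SK RNA holds the kinase P-TEFb inactive, 7SL RNA is the scaffold of the signal recognition particle, RMRP and RPPH1 are the RNA parts of RNase MRP and RNase P, Y RNAs bind the Ro60 and La proteins, and vault RNAs belong to the vault particle.

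The upstream sequences show how the promoters differ. For the genes with upstream promoters the 100 bases before the start are printed in the direction of transcription, on hg19, with TATA in capitals where it lay between 35 and 20 bases before the start. They are chr6:52860319-52860418 (plus strand) for RN7SK, chr9:35658015-35658114 (minus) for RMRP, chr14:20811571-20811670 (minus) for RPPH1, chr7:148684341-148684440 (minus) for RNY1 and chr7:148680747-148680846 (plus) for RNY3.
RN7SK: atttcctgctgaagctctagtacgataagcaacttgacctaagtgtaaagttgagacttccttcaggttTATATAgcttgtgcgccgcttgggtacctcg
RMRP: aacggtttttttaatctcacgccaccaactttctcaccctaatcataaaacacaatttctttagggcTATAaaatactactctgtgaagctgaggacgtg
RPPH1: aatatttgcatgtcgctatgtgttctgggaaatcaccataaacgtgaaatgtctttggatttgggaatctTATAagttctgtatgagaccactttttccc
RNY1: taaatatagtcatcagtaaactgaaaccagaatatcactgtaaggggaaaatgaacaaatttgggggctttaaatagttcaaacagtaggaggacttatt
RNY3: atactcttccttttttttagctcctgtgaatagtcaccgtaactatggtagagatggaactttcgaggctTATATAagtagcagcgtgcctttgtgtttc
RNY1 was the gene of this set without these letters in that interval. For the 7SL genes the same stretch is shown, chr14:50053198-50053297 (plus) for RN7SL1 and chr14:50329568-50329667 (minus) for RN7SL2, with the cAMP response element TGACGTCA in capitals, which RN7SL1 holds in full and RN7SL2 does not.
RN7SL1: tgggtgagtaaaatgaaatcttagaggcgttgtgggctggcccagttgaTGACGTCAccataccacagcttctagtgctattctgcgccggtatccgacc
RN7SL2: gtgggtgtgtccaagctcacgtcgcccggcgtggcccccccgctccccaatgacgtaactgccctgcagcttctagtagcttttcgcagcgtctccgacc
The vault RNA genes are shown whole, with the A box (TNGCNNAGNNG) and the B box (GTTCGANNCC) in capitals. They lie on the plus strand at chr5:140090860-140090958, chr5:140098510-140098598 and chr5:140105743-140105831.
VTRNA1-1: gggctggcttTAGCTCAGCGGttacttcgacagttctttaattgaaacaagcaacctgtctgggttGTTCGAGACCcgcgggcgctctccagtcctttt
VTRNA1-2: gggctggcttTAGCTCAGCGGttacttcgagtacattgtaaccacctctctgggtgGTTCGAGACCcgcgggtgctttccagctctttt
VTRNA1-3: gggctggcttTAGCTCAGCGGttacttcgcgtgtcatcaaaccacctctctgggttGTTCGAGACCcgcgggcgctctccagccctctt

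Of the 10 genes, 9 had at least 1 SMARCA4 peak within 1 kb of the gene body and 1, RNY3, had none. For comparison, 5.09% of the annotated small RNA genes (458 of 8998) and 55.7% of the protein-coding genes (11233 of 20176) had a peak within the same distance, and 42.3% of the coding genes (8526) had one within 1 kb of the start. Nothing is read from the difference, because the measured peaks guided the choice of the genes. The 9 genes had 13 peaks between them. A single peak was found at 6 genes, 2 peaks each at RN7SK and RNY1, and 3 peaks at RN7SL2. In all 9 a peak covered the start site, and in 7 of them 1 peak covered the whole gene. For comparison, a peak covered the start of 168 of the 8998 small RNA genes (1.87%) and of 6157 coding genes (30.5%). Nothing is read from this difference either.

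**Figure D1:**
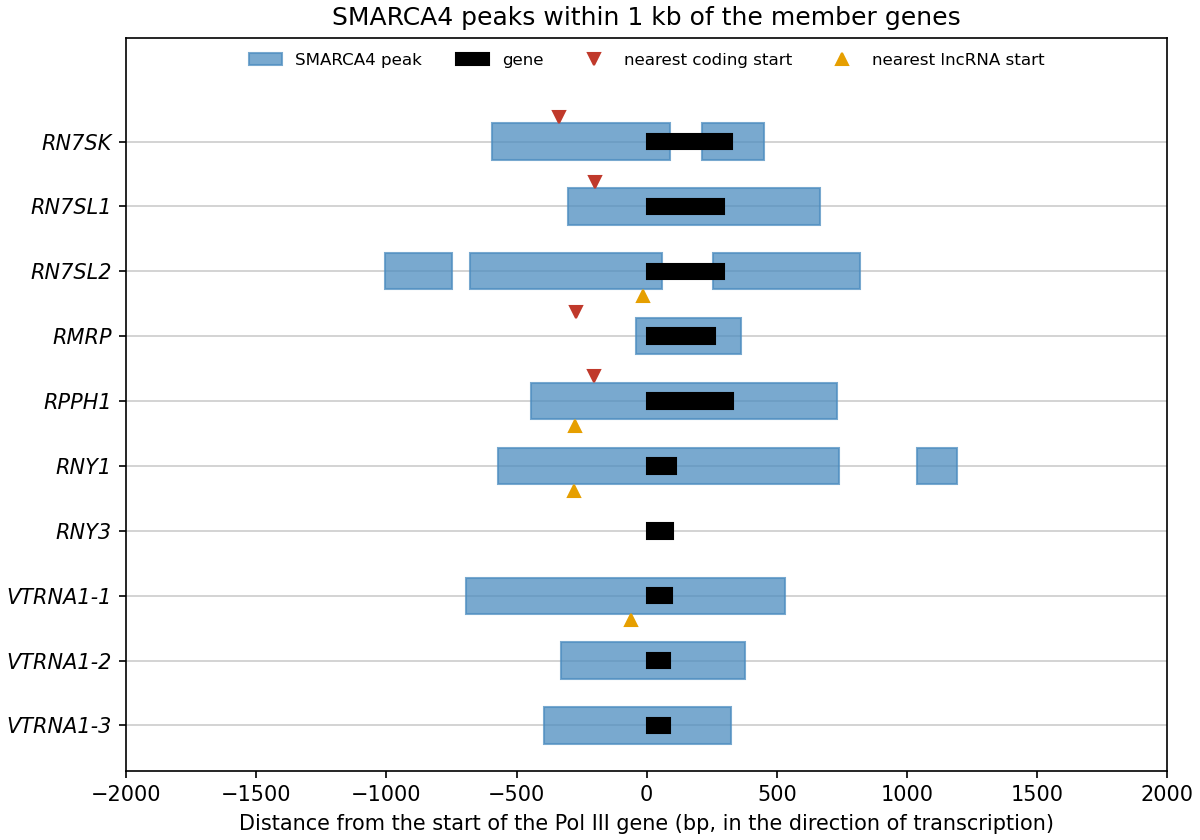
SMARCA4 peaks (blue) within 1 kb of each of the 10 genes (black), plotted as distance from the gene's start in bp in the direction of transcription, with the nearest coding start (red) and lncRNA start (orange) where they fall in the window. A peak covers the start of 9 genes, and RNY3 has no peak.

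The peaks that covered a start were 403 to 1309 bp wide, with a median of 738 bp. The median of all 28265 peaks was 368 bp, with the lower quartile at 237 bp and the upper at 586 bp, so 8 of the 9 were wider than the upper quartile and the other one, at RMRP, was wider than the median. Peaks over the start of a coding gene, the closer comparison, had a median of 571 bp (6157 genes). No test was made of either difference. The upstream edges of the 9 peaks lay between -695 and -41 bp and the downstream edges between 57 and 737 bp of the start. The centres did not share a side: 4 lay upstream of the start, and the median centre was at 24 bp. The 4 peaks that did not cover a start were 155, 240, 260 and 565 bp wide. At the limit of 1 kb, the farthest peak inside it was the one of 155 bp that lay 926 bp from RNY1, and the nearest outside was a peak of 308 bp at 1160 bp from VTRNA1-2, which had another peak of its own.

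**Figure D2:**
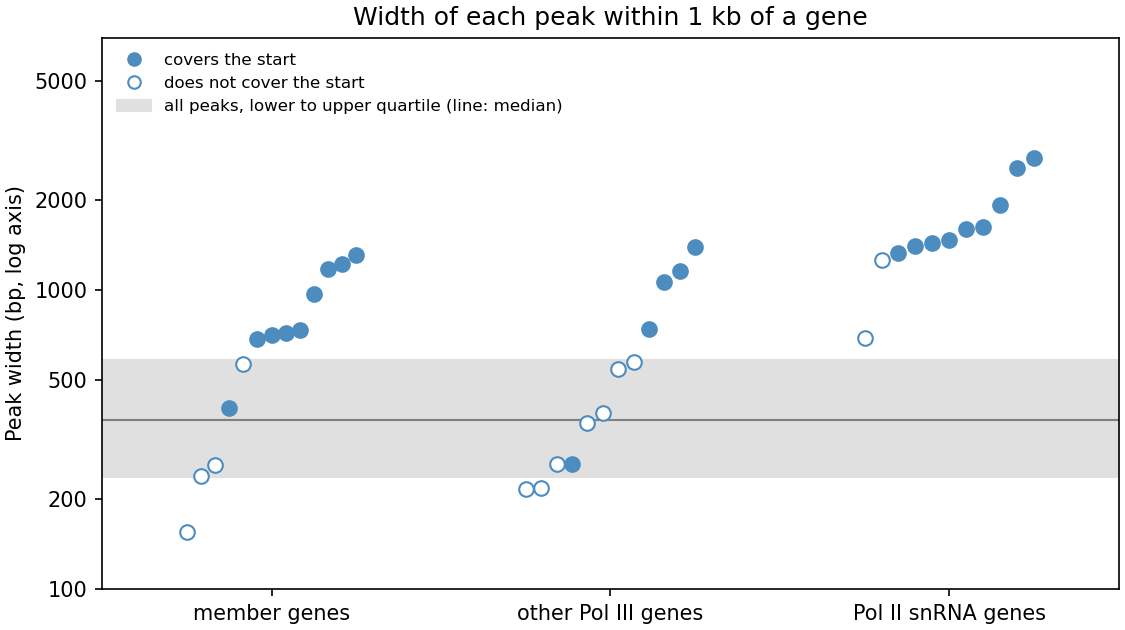
Width in bp (log axis) of each peak within 1 kb of the 10 genes, of the other Pol III genes and of the Pol II snRNA genes. Filled points cover a start and open points do not. The grey band runs from the lower to the upper quartile of all peaks (237 to 586 bp) around their median of 368 bp.

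RN7SK encodes the 7SK RNA, which keeps the elongation factor P-TEFb bound to HEXIM proteins. The gene (chr6:52860419-52860746, plus strand, 328 bp) had 2 peaks. The wider one, chr6:52859824-52860509, was 686 bp wide and ran from -595 to 90 bp around the start, and the other one, chr6:52860630-52860869, was 240 bp wide and ran from 211 to 450 bp, past the end of the gene. Together they covered 63.4% of the gene. The gap between them, 120 bp long, lay wholly inside the gene, at positions 92 to 211 of the RNA. The nearest coding start, that of the glutathione transferase gene GSTA4, was at -337 bp on the opposite strand and inside the wider peak, so a contribution of the GSTA4 promoter and one of RN7SK cannot be told apart in this peak.

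RN7SL1 and RN7SL2 encode the 7SL RNA of the signal recognition particle, which directs proteins with a signal peptide to the endoplasmic reticulum. RN7SL1 has no entry under this name in the annotation used and was placed on hg19 by sequence. The RN7SL2 gene matched chr14:50053298-50053594 (plus strand) at 98.7% over 297 bp, with RPS29 as the neighbouring coding gene, as the RefSeq table gives it for RN7SL1. RN7SL1 lay under 1 peak, chr14:50052994-50053962, 969 bp wide, from -304 to 664 bp around the start. That peak also covered the start of RPS29, which encodes a protein of the small ribosomal subunit and has its nearest start at -200 bp on the opposite strand. The annotated span of RPS29 includes RN7SL1.

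RN7SL2 (chr14:50329271-50329567, minus strand) had 3 peaks and the most divided pattern of the 10 genes. The peak over the start, chr14:50329510-50330247, was 738 bp wide and ran from -680 to 57 bp. Downstream of it chr14:50328748-50329312 (565 bp) began at 255 bp, inside the gene, and ran to 819 bp, and upstream chr14:50330315-50330574 (260 bp) lay between -1007 and -748 bp. The first 2 of these left a gap of 197 bp inside the gene, so that 33.7% of the gene lay under a peak. No coding start lay within 1 kb of these peaks, the nearest being that of NEMF, a ribosome quality control factor, at 10028 bp from the RN7SL2 start. The lncRNA gene ENSG00000282885, whose span includes RN7SL2, starts at -15 bp, and ENSG00000278002 also starts inside the peak over the RN7SL2 start. The 100 bases before the start were 61.3% identical between RN7SL1 and RN7SL2, against 98.7% for the genes themselves.

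RMRP is the RNA of RNase MRP, which acts in the processing of ribosomal RNA, and its mutations cause cartilage-hair hypoplasia. The gene (chr9:35657751-35658014, minus strand, 264 bp) lay wholly under 1 peak, chr9:35657653-35658055. At 403 bp this was the narrowest of the peaks over a start, and it reached only from -41 to 361 bp, so that most of the upstream promoter shown above, although not its TATA at -33, was outside it. The coding gene CCDC107 starts at -273 bp on the opposite strand, 232 bp beyond the edge of the peak. Among the genes with a coding start within 1 kb, this was the one whose peak did not cover that start.

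RPPH1 is the RNA of RNase P, which cuts the leader off tRNA precursors. It too has no entry under its name in the annotation, and was placed by its match to the copy RPPH1-3P (77.9% over 289 bp). No other match outside that copy passed the cut-off of the search. The match lies next to PARP2, the neighbour of RPPH1 in the RefSeq table. The gene was extended over the unmatched ends of 24 and 18 bases to chr14:20811241-20811570 (minus strand, 330 bp). Its start is therefore known less closely than the others. The peak, chr14:20810838-20812015, was 1178 bp wide and ran from -445 to 732 bp, over the whole gene. It also covered the start of PARP2, a poly(ADP-ribose) polymerase of DNA repair, at -204 bp on the opposite strand, and that of the lncRNA ENSG00000259001, whose span includes RPPH1, at -274 bp.

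RNY1 and RNY3 encode Y RNAs, which bind Ro60 and La and have been linked to RNA quality control and the start of DNA replication. The 4 human Y RNA genes lie within 45761 bp on chromosome 7, in the order RNY5, RNY4, RNY3, RNY1. Between 1 kb before the first and 1 kb after the last there were 5 peaks. At RNY1 (chr7:148684228-148684340, minus strand) the peak chr7:148683603-148684911 was 1309 bp wide, the widest at any of the 10 genes, and ran from -571 to 737 bp around the start. The lncRNA GHET1 starts at -279 bp, inside this peak, whereas the nearest coding start, that of PDIA4, was at -41257 bp. The second peak, chr7:148683148-148683302, lay beyond the end of the gene.

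RNY3 (chr7:148680847-148680948, plus strand) was the gene without a peak. The nearest one was 2200 bp away, and it was the same peak of 155 bp that lay 926 bp from RNY1. Neither a coding nor a lncRNA start lay within 1 kb of RNY3, with GHET1 the nearest at 3772 bp. RNY3 held a TATA box at -30 bases, an octamer at -242 and a ZNF143 site at -232, and is so the only one of the 10 with matches to all 3. Its neighbours in the cluster, not among the 10, were split in the same way: RNY5 had 2 peaks, of 1159 and 576 bp, with the wider one over its start, and RNY4 had none within 3355 bp. RNY1 and RNY5 each had a lncRNA start inside the peak, and RNY3 and RNY4 had no coding or lncRNA start within 1 kb. At RNY5 the nearest of these starts, that of ENSG00000286171, lay at -5 bp, and the span of that lncRNA includes RNY5. The part of these starts in the peaks was not tested.

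The vault RNA genes VTRNA1-1, VTRNA1-2 and VTRNA1-3 lie in the same direction within 14972 bp on chromosome 5, and each had its own peak over the whole gene. VTRNA1-1, the most studied vault RNA, had the widest, chr5:140090165-140091392 (1228 bp, -695 to 532 bp). The peaks at VTRNA1-2, chr5:140098180-140098888, and VTRNA1-3, chr5:140105348-140106066, were alike in width (709 and 719 bp) and were nearly centred on the start (24 and -36 bp). The annotated lncRNA ENSG00000292256 starts at -60 bp from VTRNA1-1 and runs over all 3 genes. VTRNA1-2 and VTRNA1-3 are the 2 of the 9 genes whose peak had no coding or lncRNA start within 1 kb, the nearest coding start being that of ZMAT2 at -18478 and -25711 bp. The genes were 81.8 to 87.8% identical and their upstream 100 bases 83.3 to 90.0%.

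Across the 9 genes with a peak, 7 had a coding or lncRNA start within 1 kb of it. With only coding starts counted, 4 did (RN7SK, RN7SL1, RMRP and RPPH1). In each of these 4 the nearest coding start lies upstream on the opposite strand, at -337 to -200 bp, as in a divergent pair of promoters. The lncRNA starts come from the annotation, and which polymerase uses them was not tested. At RN7SL2 and VTRNA1-1 an annotated lncRNA starts at -15 and -60 bp, and its span includes the small RNA gene. Counted the same way, a coding or lncRNA start lay near the peak at 261 of 458 small RNA genes with a peak. It did so at 6 of 10 other Pol III genes and at 4 of 11 Pol II snRNA genes, with no test made of the differences. This comparison was not made for coding starts alone. The peaks carry no strand and no height. Where a coding or lncRNA start lies inside the same peak, the list does not divide the signal between both starts.

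The G-quadruplex (G4) motif was searched on both strands as 4 runs of 3 or more guanines, with 1 to 7 bases between runs. It was found in 1 of the 13 peaks, the one over the RN7SL2 start. Of all peaks 23.4% (6601) held it. The GC content of the 13 peaks ran from 37.5% in the narrower RN7SK peak to 61.0% at RMRP, with a median of 47.3%, and the median of all peaks was 53.2%. The motif is a sequence and does not show whether a G4 was folded in these cells.

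Short promoter elements were then searched on both strands from 250 bases before to 150 bases after each start, and in the same window of 64246 annotated gene starts. TATA between 35 and 20 bases before the start, searched on the sense strand, was found at RN7SK, RMRP, RPPH1 and RNY3, and at 4.86% of all starts. The octamer ATGCAAAT was at RMRP, RPPH1 and RNY3 (3.19% of all starts), and the ZNF143 site, searched as CCCANNATGC, at RN7SK, RN7SL1, RNY1 and RNY3 (2.08%). These are the elements known from upstream Pol III promoters. TGACGTCA was at RN7SL1 and RPPH1 (1.13%), and at RN7SL1 it began at -51. Among the 11 Pol III genes outside the 10 other than 5S, TATA was at 5, the octamer at 4, the ZNF143 site at 2 and TGACGTCA at none. The octamer and the ZNF143 site were not limited to Pol III genes. Among 13 Pol II snRNA genes, TATA was at 1, the octamer at 7, the ZNF143 site at 4 and TGACGTCA at 1.

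The 3 vault RNA genes of this set shared several matches. All 3 had an A box 11 bases and a B box 57 or 67 bases from the start, and VTRNA1-1 had a second B box match at 113, past the end of the gene. The A box letters were common (18.5% of all starts), also matching upstream of RN7SL1, and the B box letters were rare (1.39%). All 3 also had 2 AP-1 matches upstream, TGAGTCA beginning at -92 or -90 and TGACTCA at -66 or -64, in a window where 5.97% of all starts had either. No other of the 10 genes had an AP-1 match. Outside the 10, among the 11 Pol III genes other than 5S, the B box letters also matched at VTRNA2-1 (69) and BCYRN1 (79), AP-1 at BCYRN1 (-151) and the A box letters at 5 U6 genes. Of 13 Pol II snRNA genes, 6 matched the A box letters, 0 the B box letters and 1 AP-1. The remaining motifs were common or isolated: the GC box GGGCGG at RN7SL2, RMRP, RPPH1 and VTRNA1-1 (29.9%), the GATA core GATAA at RN7SK, RN7SL2 and RNY1 (36.2%), the E-box CACGTG at RMRP (6.86%) and a G4 motif at RN7SL2 (18.0%). A match describes the sequence and not the binding of a factor.

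**Figure D3:**
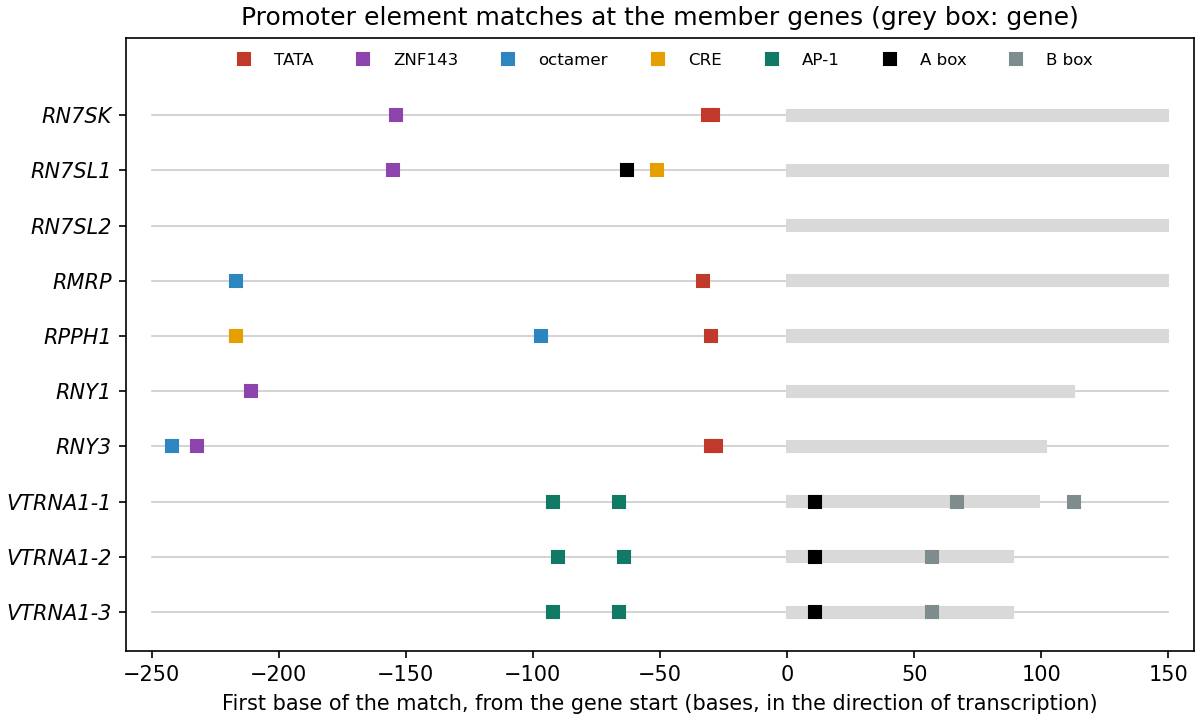
First base of each match to the TATA, ZNF143, octamer, CRE, AP-1, A box and B box letters, in bases from the start of each gene (grey box: gene, drawn up to 150 bases). Upstream matches to the TATA, ZNF143, octamer or CRE letters lie at RN7SK, RN7SL1, RMRP, RPPH1, RNY1 and RNY3, and the A box, B box and AP-1 matches repeat at the 3 vault RNA genes. The GC box, GATA, E-box and G4 matches are not drawn.

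Both 7SK and 7SL have many near copies in the genome, and 7SL is the ancestor of the Alu repeats, so short reads from these genes can fit several places. Reads of 75 bases cut from hg19 were mapped back, and reads that returned with a mapping quality of 10 or more were called unique. Averaged over the bases of the gene, 43.4% of the reads were unique at RN7SK, 24.9% at RN7SL1, 30.7% at RN7SL2 and 74.6% at RNY3, and 100% at the other 6 genes. In the kb before the start the share was at least 97.9% at these 4 genes. The gap inside RN7SK (chr6:52860510-52860629), with 1.7% unique reads, and the one inside RN7SL2, with 8.2%, both fell on stretches from which few reads map to 1 place. The one of RN7SK is printed in the direction of transcription.
RN7SK gap: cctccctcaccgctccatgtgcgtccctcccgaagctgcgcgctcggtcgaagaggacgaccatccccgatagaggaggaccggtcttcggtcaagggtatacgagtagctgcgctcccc
The other gaps, of 67 bp upstream of RN7SL2 and of 300 bp downstream of RNY1, had 100% and 99.3% unique reads. RN7SL1 had a lower share of unique reads than RN7SL2 but lay under an unbroken peak. The study's methods name a cut on low mapping quality at the trimming step and do not say whether it was applied to the aligned reads. The part of mapping in the gaps and at RNY3 was not tested. At RNY3, where no peak was found, most reads were unique and the kb on either side was at 99.99 and 100%.

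**Figure D4:**
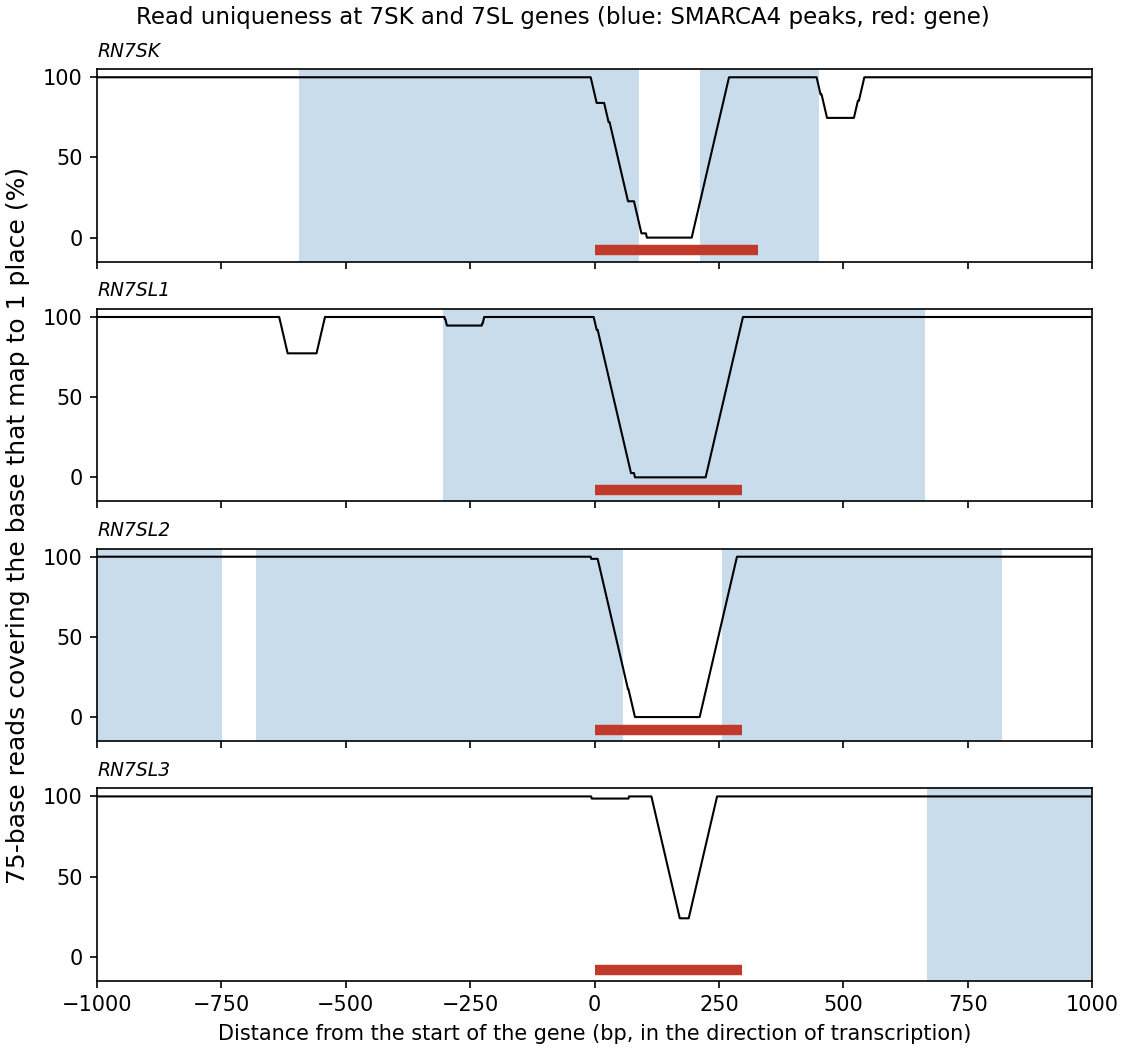
Share of 75-base reads over each base that map to 1 place (%, black line) from 1000 bp before to 1000 bp after the start of RN7SK, RN7SL1, RN7SL2 and RN7SL3, with SMARCA4 peaks in blue and the gene in red. The gap between peaks falls in the trough at RN7SK and RN7SL2, and the peak at RN7SL1 spans it.

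Other Pol III genes outside the 10 were set beside them. Of 28, 10 had a peak within 1 kb (35.7%, 95% Wilson interval 20.7 to 54.2%). The 17 genes for 5S ribosomal RNA had none, and the nearest peak was at least 42837 bp away. At 16 of the 17, no read from the gene was unique, and RNA5S9 had 48.1%, and the part of mapping in this count was not tested. Of the other 11 genes 10 had a peak (90.9%, interval 62.3 to 98.4%), but only 5 had one over the start, and 5 had one that overlapped the gene at all. The Wilson intervals cover counting error only, and genes that share a cluster are not independent.

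The genes of U6 RNA, the spliceosomal RNA made by Pol III, were covered at RNU6-1 (1065 bp), RNU6-2 (1401 bp) and RNU6-9 (744 bp), and RNU6ATAC, of the minor spliceosome, by a peak of 263 bp. RNU6-2 and RNU6-9 shared their peak with the starts of TMEM259 and of the Mediator gene MED16. RNU6-8 had a peak of 388 bp at a distance of 188 bp. The copy RN7SL3, 97.6% identical to RN7SL1, differed from both 7SL genes above: its peak, of 545 bp, lay 371 bp beyond the gene and covered the start of NEMF. Of the reads over the gene 80.5% were unique, and the part of mapping was not tested. BCYRN1, a neuronal RNA derived from Alu, had a peak of 263 bp at 639 bp. VTRNA2-1, named here after its value was seen, had a peak of 217 bp that ended 8 bp before its start.

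Pol II makes most spliceosomal RNAs, and the U7 RNA, from promoters that share the SNAPc element with the upstream Pol III promoters. Of 16 such genes asked for, 13 were found by name, and 11 of them had a peak (84.6%, interval 57.8 to 95.7%), 10 with a peak over the start. These peaks were wider than those at the 10 Pol III genes, with 1337 to 2782 bp and a median of 1598 bp over 9 distinct peaks, against 403 to 1309 bp, with no test made of the difference. Peaks over a start of the other Pol III genes overlapped this range, with 263 to 1401 bp and a median of 1065 bp over 5 distinct peaks. RNU4-1 and RNU4-2 (U4 RNA) lay under 1 peak of 2782 bp, RNU5E-1 (U5) under 2573 bp, RNU5D-1 under 1923 bp, RNU7-1 (the U7 RNA of histone mRNA processing) under 1631 bp, RNU5F-1 under 1598 bp, RNU5A-1 under 1476 bp and RNU5B-1 under 1444 bp. Of the U1 genes, RNU1-1 had a peak of 1411 bp (27.4% unique reads over the gene) and RNU1-2 one of 1260 bp beginning 39 bp after its start (12.1%), and RNU1-3 and RNU1-4 had no peak and no unique reads. The part of mapping was not tested.

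Annotated copies of the RNA families, mostly pseudogenes, carried peaks at a share of a few percent. Within 1 kb, 8 of 295 7SK copies (2.71%, interval 1.38 to 5.26%), 19 of 846 7SL copies (2.25%, 1.44 to 3.48%) and 26 of 855 Y RNA copies (3.04%, 2.08 to 4.42%) had a peak. The copies of RMRP (5), RPPH1 (2) and vault RNA (1) had none, and of U6 and 5S copies 29 of 1327 and 12 of 518 did. Over all 3849 copies the count was 94 (2.44%, 2.00 to 2.98%), below the 5.09% of all small RNA genes, with no test made of the difference. The small RNA genes were taken by gene type and include copies, so these sets overlap. The count of copies with a peak depended on the distance allowed, with 61 within 500 bp, 178 within 2 kb and 15 where the peak overlapped the copy. A start was covered in 12 copies (0.312%).

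The 6 widest peaks near copies all lay outside the copy, and 5 of them had a coding start within 1 kb. RNU6-1154P had a peak of 2519 bp at 925 bp, near the start of STMP1, RNA5SP155 one of 1867 bp at 159 bp, near that of WDR1, and a Y RNA copy on chromosome 12 one of 1813 bp at 967 bp, near TUBA1B. RN7SL395P had 1679 bp at 511 bp near ZNF34, and RNY4P10 had 1611 bp at 198 bp near RXRB and SLC39A7. A Y RNA copy on chromosome 6 was the exception, with 1654 bp at 301 bp and no coding or lncRNA start within 1 kb. Of the 94 copies with a peak, 39 had a coding or lncRNA start within 1 kb of it.

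**Figure D5:**
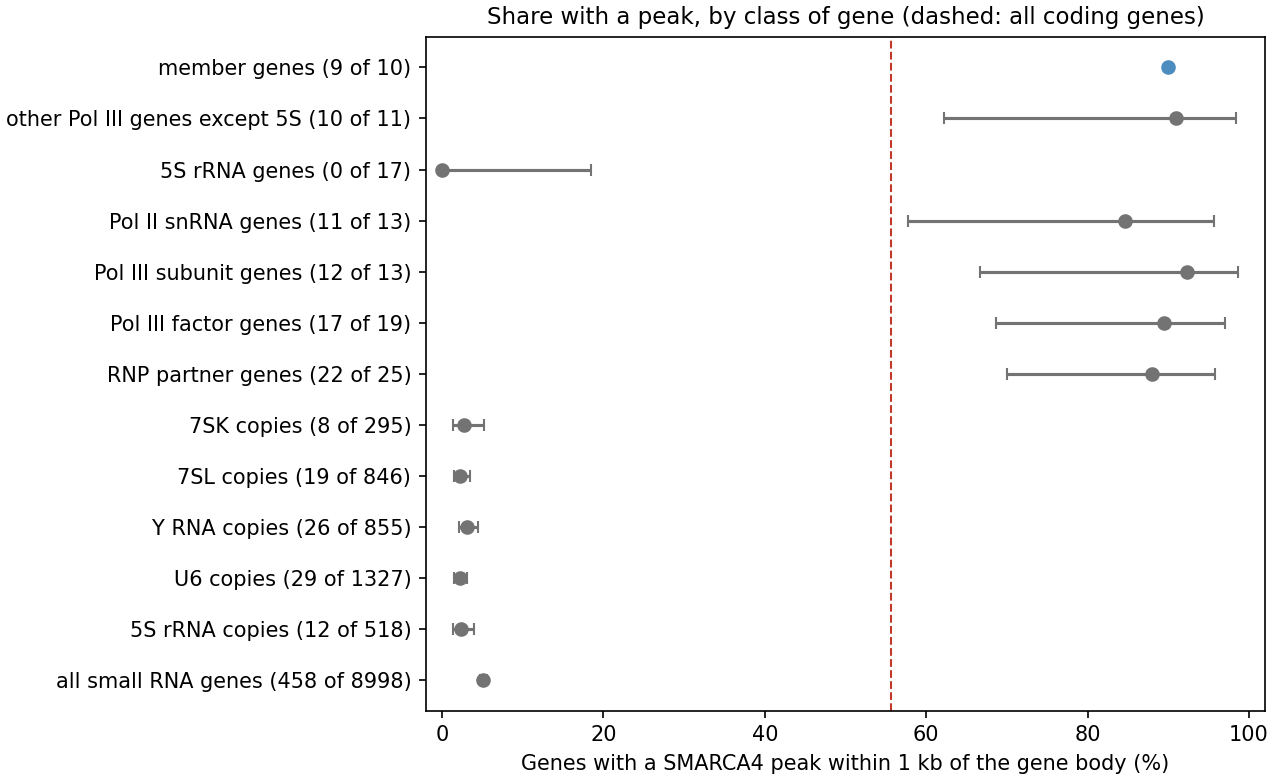
Share of genes with a SMARCA4 peak within 1 kb of the gene body (%), by class, with the counts beside each name and 95% Wilson intervals as bars. The dashed line is the share of all coding genes, 55.7%, and the 10 genes described here (blue) have no interval because peaks guided their choice. The other lists were also chosen with earlier results of these data known, and their intervals cover counting error only. Copies lie near 2 to 3%.

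The genes for the proteins that transcribe or bind these RNAs, all transcribed by Pol II, had a peak within 1 kb of the gene body in 51 of 57 cases (89.5%, interval 78.9 to 95.1%), beside 55.7% of all coding genes, and within 1 kb of the gene start in 45 (78.9%, 66.7 to 87.5%), beside 42.3%. This list was chosen with earlier results of these data known. Nothing is therefore read from either difference, and the intervals cover counting error only. By role, 12 of 13 Pol III subunit genes, 17 of 19 factor genes and 22 of 25 partner genes had a peak near the gene body. Among the partners, all 4 of 7SK and all 6 of 7SL had one, as did 8 of 10 of RNase P and MRP, both of the Y RNAs and 2 of 3 of the vaults. Within 1 kb of the gene start, 1 of the 2 Y RNA partners and 1 of the 3 vault partners had a peak. The counts for the partners of 7SK, 7SL and RNase P and MRP were the same by that rule. The subunit gene without a peak was POLR3F. Of the factor genes BDP1, a part of TFIIIB, and SNAPC1, a part of SNAPc, had none.

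Peak width varied widely within this list, also among the partners of 7SK. MEPCE, which caps and retains the 7SK RNA, had a peak of 2750 bp over its start, and HEXIM1, the inhibitor that binds P-TEFb on 7SK, one of 2442 bp, while its paralogue HEXIM2 had 1153 bp beginning 66 bp after its start. LARP7, which protects the 7SK RNA and is named here after its value was seen, had 387 bp over the start. POLR3B, which forms the catalytic centre of Pol III with POLR3A, had 1595 bp over the start. POU2F1 and ZNF143, the activators whose sites were searched above, had 1569 bp over the start and 1019 bp downstream of it. The ZNF143 start was covered by another, narrower peak. RO60, the Y RNA binding protein, had 1043 bp over the start. The widest peak at POLR3GL, of 1007 bp, lay beyond the end of the gene, and a peak of 301 bp covered its start. Apart from LARP7 these genes are named because their peaks are the widest, and the median widest peak of the 51 genes was 550 bp.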

How the data were processed

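The authors used cutadapt 1.16 for trimming (with a cut at mapping quality 10, as their methods put it), BWA 0.7.15 for alignment to hg19, Picard 2.14.0 and SAMtools 1.6 for duplicate removal, and MACS2 2.1.1 (q-value 0.05) for peaks of each replicate against input. They kept regions found in at least 2 of 3 replicates with bedtools 2.26.0. The values used are start and end positions in bp, without score or depth. All 24 chromosomes with peaks were found in the genome used, and 0 peaks ran past the end of one.

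A gene had a peak when a peak overlapped its body (GENCODE release 44 on hg19) extended by 1 kb on both sides. RN7SL1 and RPPH1 were placed with blastn 2.17.0, with neighbours from RefSeq (GRCh38.p14, names alone). Read uniqueness was measured with minimap2 2.31-r1302. Other values were computed with Python 3.11.15, numpy 2.4.6, scipy 1.17.1, pysam 0.24.0, biopython 1.88 and matplotlib 3.10.9. The interval searches and the G4 motif search were tested on simulated data, and the searches for the other elements were not. Positions are counted from 1, and distances from the start follow the direction of transcription. Peak distances take the start base as 0, and positions in the RNA and of sequence elements take it as 1, with upstream bases counted from -1.

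The members and lists were chosen with earlier results of these data known. All 10 genes are named with every peak. Of the other lists, every gene with a peak is named when at most 8 have one, otherwise the 8 with the widest, with factor genes without a peak, and of the copies the 6 with the widest. Alternatives were other windows and distance rules, removal of peaks under 200 bp, merging of peaks up to 500 bp apart, coding starts alone, and other rules for read uniqueness. RNU2-1, RNU11 and RNU12 were not analysed here.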

Additional observations from a re-analysis of the deposited data

How the results depend on the processing

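No paired analysis was possible because the 3 replicates are merged in the 1 peak list used here, which also keeps any value from being recomputed without each of them. The reads and the separate peak calls of each replicate were not used. Of 49 recomputed counts, 44 stayed within 1.5 times the first count and 5 did not. The count of 9 genes with a peak was 9 under each of the 6 alternatives for window, distance and peak set, and 7 of 8 without the 2 genes placed by sequence, a setting chosen after seeing the data. The 13 peaks became 9 to 14. The median width of 709 bp was 714 bp for peaks of at least 200 bp, 686 bp for the 8 genes named in the annotation and 1046 bp for merged peaks, with no spread to set these shifts against. With coding starts alone, and lncRNA starts left out, 4 and not 7 genes had a start near the peak. When the peak had to overlap the gene body, 5 and not 10 other Pol III genes and 15 and not 94 copies had one, and the copies numbered 61 within 500 bp and 178 within 2 kb. These shifts follow from the narrower or wider rule itself. Mean uniqueness over the 10 genes, 77.4%, was 81.0% at a mapping quality of at least 1 and 81.0% when exact copies alone were counted. Without height, depth or input signal in this list, weak and strong binding cannot be told apart, nor can Pol II and Pol III promoters inside 1 peak. Binding under the threshold of the peak caller was not tested.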
